A study of Mus musculus with 8 samples.

Results

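The miR-34 and miR-449 miRNAs were followed across 3 compartments of the pubertal mouse mammary gland. The members were taken by name and not by any measured value: mmu-miR-34a, mmu-miR-34b-5p, mmu-miR-34b-3p, mmu-miR-34c, mmu-miR-449a and mmu-miR-449b, which are 6 of the 611 mouse miRNAs on the array. Earlier results of these data were known when they were chosen. RNA came from female β-actin-GFP reporter mice of the FVB/n strain aged 5 weeks, and all 3 groups carried the reporter. Under a fluorescence microscope, terminal end buds (TEBs, the growing tips of the ductal tree), mature ducts and stroma lying far from the ducts were cut out of the mammary glands. There were 3 arrays of TEBs, 2 of mature ducts and 3 of stroma, all Agilent single-colour mouse miRNA arrays. Nothing in the labels says whether an array holds 1 animal or a pool, so the p-values measure the spread between these RNA samples, which may be technical.

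miRNAs are short RNAs that pair with messenger RNAs mainly through the seed, bases 2 to 8 from the 5′ end, and lower the output of the messages they bind. The miR-34 miRNAs are known as direct transcriptional targets of the tumour suppressor p53 and repress genes of the cell cycle. The miR-449 miRNAs share their seed and are best known from multiciliated epithelia, where they are made from an intron of Cdc20b.

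The sequences are shown because the seed is what joins the family. They come from RefSeq on the mouse build GRCm38.p6, written 5′ to 3′ with the seed in capitals, for the members matched in the sequence table used here, which is not complete, and for the family relatives miR-449c and miR-34c*, the latter being the opposite arm of the miR-34c hairpin. miR-34c and miR-449b are named only.
miR-34a: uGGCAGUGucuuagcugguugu
miR-34b-5p: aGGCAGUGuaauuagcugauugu
miR-449a: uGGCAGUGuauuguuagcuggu
miR-449c: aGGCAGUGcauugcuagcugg
miR-34b-3p: aAUCACUAacuccacugccauc
miR-34c*: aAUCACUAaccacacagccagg
The first 4 share the seed GGCAGUG, which is held by 4 of the 1679 mature mouse miRNAs in that table (0.238%), a count that does not include miR-34c or miR-449b. miR-34b-3p, cut from the other arm of the miR-34b hairpin, has the seed AUCACUA and shares it with miR-34c*. After the seed the guide strands differ when compared position by position without gaps. There miR-34a matched miR-449a at 7 of 14 positions and miR-34b-5p at 4 of 14. Over the whole length, and again without gaps, miR-449a and miR-449c were the closest pair, identical at 18 of 21 positions. miR-34b-5p is 23 bases long and miR-34a 22, so a shifted base counts as a run of mismatches. A comparison that allows gaps was not made.

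The members lie at 3 loci in GRCm38.p6. Mir34a stands at chr4:150068454-150068555. Mir34c and Mir34b lie 1 after the other within 612 bases at chr9:51103034-51103645, inside the spans of Hoatz and Btg4. Mir449c, Mir449b and Mir449a lie within 1642 bases at chr13:113035983-113037624, inside the span of Cdc20b.

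Of the 611 mouse miRNAs, between 23.2% and 27.7% were detected on each array, and the 167 that all arrays of some tissue detected entered the tests. Log2 signals correlated more strongly between arrays of the same tissue (Pearson's r between 0.955 and 0.987 across miRNAs) than between tissues (0.645 to 0.926). Of 10 epithelial marker miRNAs, 8 were detected on all TEB and duct arrays and 0 on any stroma array, while 4 of 5 fibroblast and smooth muscle markers were detected in every tissue and miR-145 in none. The first duct array stood apart: the median reported error of its undetected miRNAs was 7.39 units, against 2.55 to 5.02 on the other arrays, and their median signal was -17.8 units, against -12.7 to -3.78. Values below are the scanner's background-subtracted signals, scaled between arrays on the 108 miRNAs detected on all 8 arrays. Over the 167 miRNAs the median log2 difference was -0.104 for TEB against duct, -0.277 for TEB against stroma and -0.0892 for duct against stroma, and member differences are read beside these.

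miR-34a was the member detected everywhere, on 8 of 8 arrays. miR-34b-5p was detected on all TEB and stroma arrays and on 1 of 2 duct arrays. miR-34c was detected on 3 of 3 TEB arrays, 1 of 2 duct arrays and 2 of 3 stroma arrays. miR-34b-3p, miR-449a and miR-449b were detected on no array, as were 408 of the 611 mouse miRNAs. In the tests across the 167 miRNAs, 0 of the 3 tested members passed an adjusted p of 0.05 in any of the 3 comparisons (limma, Benjamini-Hochberg adjustment). Of all tested miRNAs, 24.6% passed for TEB against duct, 64.7% for TEB against stroma and 21.6% for duct against stroma.

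**Figure D1:**
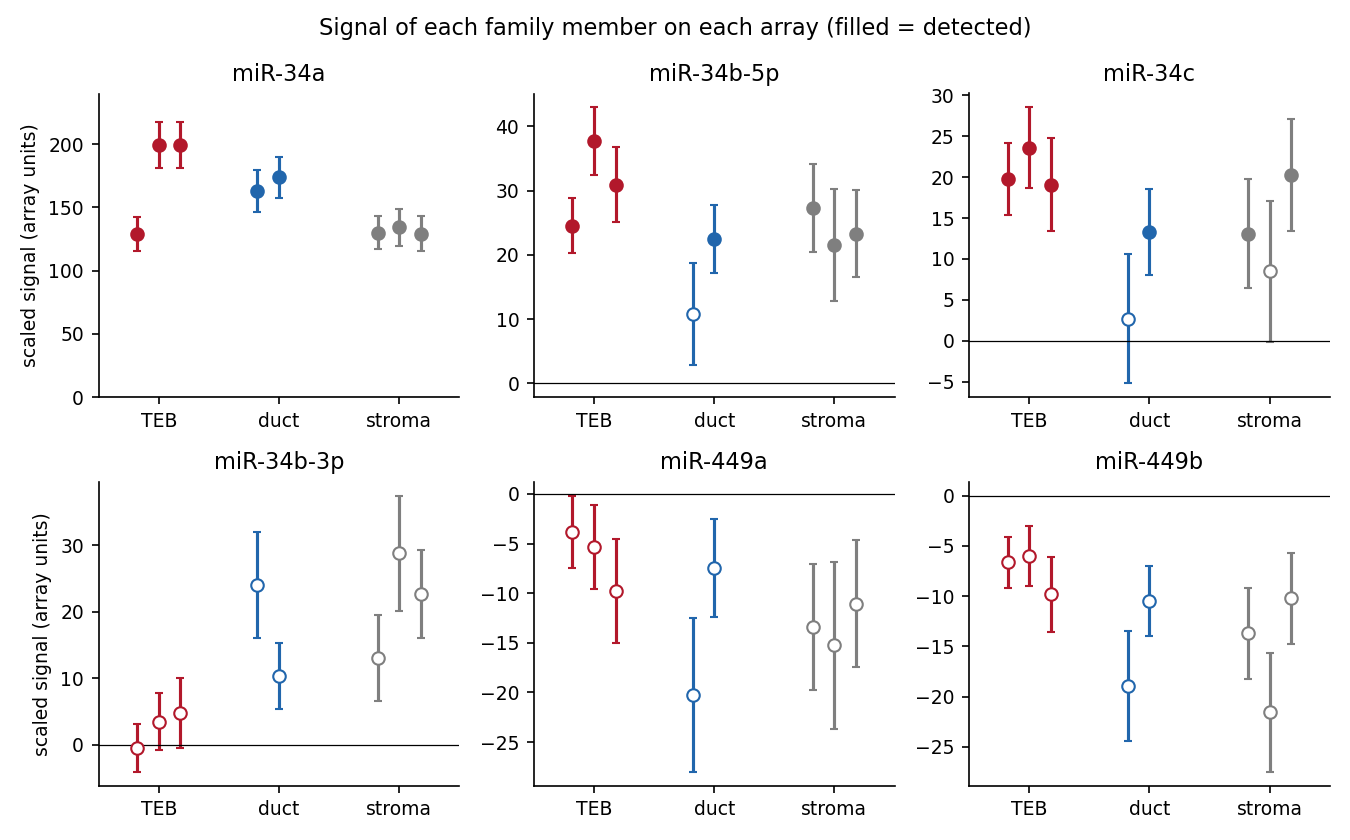
Scaled signal (array units, linear axes that differ between panels) of the 6 members on each array of TEBs, ducts and stroma, with bars for the signal error reported by the scanner software. Filled points were detected and open points were not; miR-34a is filled on all 8 arrays, and miR-449a and miR-449b lie below 0 on every array.

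miR-34a, the p53 target studied most in the family, had scaled signals of 129, 199.1 and 199.2 units on the 3 TEB arrays, 163 and 174 units on the duct arrays, and 130, 134 and 129 units on the stroma arrays. The first TEB array lay with the stroma, and the other two TEB arrays lay above both ducts. The means were 176 ± 40.3 units in TEBs (SD, n = 3), 168 ± 7.60 in ducts (SD, n = 2) and 131 ± 2.73 in stroma (SD, n = 3). In order of level, TEBs and ducts did not differ beyond their spread, with a log2 difference of 0.04 (95% interval -0.45 to 0.52, limma adjusted p = 0.906).

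Between epithelium and stroma the miR-34a differences were larger than between the epithelial fractions but did not pass the test. TEB against stroma gave a log2 difference of 0.39 (95% interval -0.04 to 0.82, limma adjusted p = 0.0947), and the TEB and stroma arrays overlapped. Duct against stroma gave 0.36 (95% interval -0.12 to 0.84, limma adjusted p = 0.262). The duct arrays lay above all stroma arrays, as they did for 19.8% of the tested miRNAs, with an exact two-sided permutation p of 0.1, the smallest that 2 arrays against 3 allow. The 5 epithelial arrays against the 3 stroma arrays gave an exact two-sided permutation p of 0.107, where 0.018 is the smallest possible.

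These miR-34a values depended on the scaling and on 1 array. Without the first TEB array the log2 difference of TEB against stroma was 0.60 and that of duct against stroma stayed at 0.36, with limma adjusted p = 0.00232 and 0.0277; where the percentile was also chosen again from the other 7 arrays, they were 0.63 and 0.60 (limma adjusted p = 0.00281 and 0.00532). Scaling on the median of the same 108 miRNAs, an alternative chosen after the data were seen, gave 0.88 (limma adjusted p = 0.00705) for TEB against stroma and 0.70 (limma adjusted p = 0.0398) for duct against stroma. That scaling also moved the median of all 167 miRNAs to 0.208 and 0.235.

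**Figure D2:**
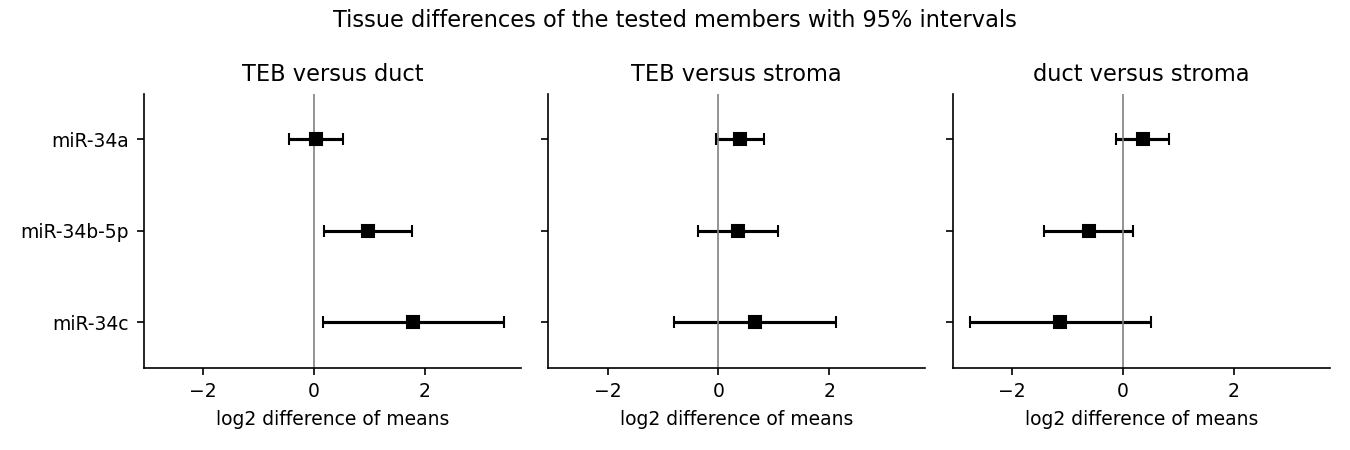
Log2 differences between tissue means of the 3 tested members (squares) with 95% intervals from limma (bars), for the 3 comparisons. The intervals of miR-34b-5p and miR-34c lie above 0 for TEB against duct, although neither passed the adjusted test; the other 7 intervals include 0.

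miR-34b-5p, the guide strand of the miR-34b hairpin, had scaled signals of 24.5, 37.7 and 30.9 units in TEBs, 10.8 and 22.5 units in ducts, and 27.3, 21.5 and 23.3 units in stroma. The first duct array, where it was not detected, was the lowest of the 8. Both duct arrays lay below all TEB arrays, and the second duct array lay within the range of the stroma.

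miR-34c, from the hairpin next to miR-34b, had scaled signals of 19.7, 23.6 and 19.1 units in TEBs, 2.68 and 13.3 units in ducts, and 13.1, 8.48 and 20.3 units in stroma. It was not detected on the first duct array and the second stroma array. All TEB arrays lay above both ducts, whereas TEBs and stroma overlapped.

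The 5p members of the chromosome 9 pair had lower signals in ducts than in TEBs, without passing the test. For TEB against duct the log2 difference was 0.97 for miR-34b-5p (SE 0.33, 95% interval 0.17 to 1.77, limma adjusted p = 0.0657). It was 1.79 for miR-34c (SE 0.68, 95% interval 0.16 to 3.43, limma adjusted p = 0.0816). Thus 0 of 3 tested members were called where 24.6% of all tested miRNAs were, and 2 of the 3 had an unadjusted p under 0.05, as did 82 of the 167. TEB arrays lay above both duct arrays for these 2 members and for 22.2% of the tested miRNAs, and the exact two-sided permutation p was 0.1 for each, the smallest that 3 arrays against 2 allow.

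Against stroma neither member of the pair passed. For TEB against stroma the log2 difference was 0.35 for miR-34b-5p (limma adjusted p = 0.335) and 0.66 for miR-34c (limma adjusted p = 0.374), in a comparison in which 64.7% of all tested miRNAs were called; 0 of the 3 members had an unadjusted p under 0.05. For duct against stroma it was -0.62 for miR-34b-5p (limma adjusted p = 0.244) and -1.13 for miR-34c (limma adjusted p = 0.289), where 21.6% were called and again 0 of the 3 had an unadjusted p under 0.05. The 3 comparisons share arrays and are not independent of each other.

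The size of the duct difference of the pair depended on the first duct array. Arrays lay in 2 rows of a slide, with TEB, duct and stroma arrays in each. In the row that held the first duct array neither miRNA was detected in the duct, with signals of 0.34 and 1.36 times their error for miR-34c and miR-34b-5p, so no difference is given. In the row that held the second, with 1 TEB and 1 duct array, the log2 difference of TEB against duct was 0.52 for miR-34c and 0.46 for miR-34b-5p. Without the first duct array it was 0.64 for miR-34c (limma adjusted p = 0.378) and 0.44 for miR-34b-5p (limma adjusted p = 0.303), or 0.43 and 0.23 with the percentile chosen again from the other 7 arrays.

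Signals of undetected miRNAs were lowest on the first duct array, so the pair was also compared after subtracting from each array the median of the 408 never-detected miRNAs, an alternative chosen after the data were seen. The scaled signals of miR-34c were then 24.2, 29.1 and 27.1 units in TEBs, 18.5 and 21.8 in ducts, and 26.1, 25.1 and 29.4 in stroma. For miR-34c both ducts lay below every TEB and stroma array, an order whose share over all tested miRNAs was not computed after this subtraction. Ducts and TEBs overlapped for miR-34b-5p, with 31.01 units on the second duct array and 29.05 on the first TEB array. The log2 difference of TEB against duct was 0.41 for miR-34c (limma adjusted p = 0.0413), far smaller than without the subtraction, and 0.35 for miR-34b-5p (limma adjusted p = 0.184). In that comparison 70 of all 167 tested miRNAs were called after the subtraction, in place of 41. Duct against stroma differed about as much, by -0.42 for miR-34c (limma adjusted p = 0.0578) and -0.36 for miR-34b-5p (limma adjusted p = 0.228). TEB and stroma means of the pair then lay almost together, with log2 differences of -0.01 for miR-34b-5p and about 0 for miR-34c.

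Ratios within an array do not depend on the scaling, although they do depend on the background, so each member of the pair was divided by miR-34a. The log2 ratio of miR-34b-5p to miR-34a was -2.40, -2.40 and -2.69 on the TEB arrays, -3.92 and -2.95 on the duct arrays, and -2.25, -2.64 and -2.47 on the stroma arrays. The -3.92 is from the first duct array, where miR-34b-5p was not detected, at 1.36 times its error. Both duct arrays lay below all TEB and all stroma arrays, with an exact two-sided permutation p of 0.1 for each comparison, while TEBs and stroma differed by -0.04 (exact two-sided permutation p = 0.9). The share of all tested miRNAs whose ratio to miR-34a shows such an order was not computed, for this member or for miR-34c, with or without the subtraction. For signals, TEB arrays lay above both ducts for 22.2% of tested miRNAs, and ducts below all stroma arrays for 22.8%.

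For miR-34c the log2 ratio was -2.71, -3.08 and -3.38 on the TEB arrays, -5.93 and -3.70 on the duct arrays, and -3.31, -3.99 and -2.67 on the stroma arrays. The -5.93 and the -3.99 are from arrays where miR-34c was not detected, at 0.34 and 0.98 times its error. The size of these ratios is therefore uncertain. Ducts lay below all TEB arrays (exact two-sided permutation p = 0.1) but overlapped the stroma (exact two-sided permutation p = 0.3). After subtraction of the never-detected median the log2 ratios of miR-34c were -2.47, -2.82 and -2.94 in TEBs, -3.26 and -3.06 in ducts, and -2.45, -2.58 and -2.24 in stroma. Ducts were then below all TEB and all stroma arrays (exact two-sided permutation p = 0.2 and 0.1). Those of miR-34b-5p became -2.21, -2.25 and -2.41 in TEBs, -2.74 and -2.56 in ducts, and -1.82, -1.98 and -2.10 in stroma. The ducts stayed lowest, but TEBs now lay below all stroma arrays, with a difference of -0.33 (exact two-sided permutation p = 0.1) in place of -0.04. The value of a ratio compares different probes and carries no information on which miRNA is more abundant; only its differences between arrays are read.

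**Figure D3:**
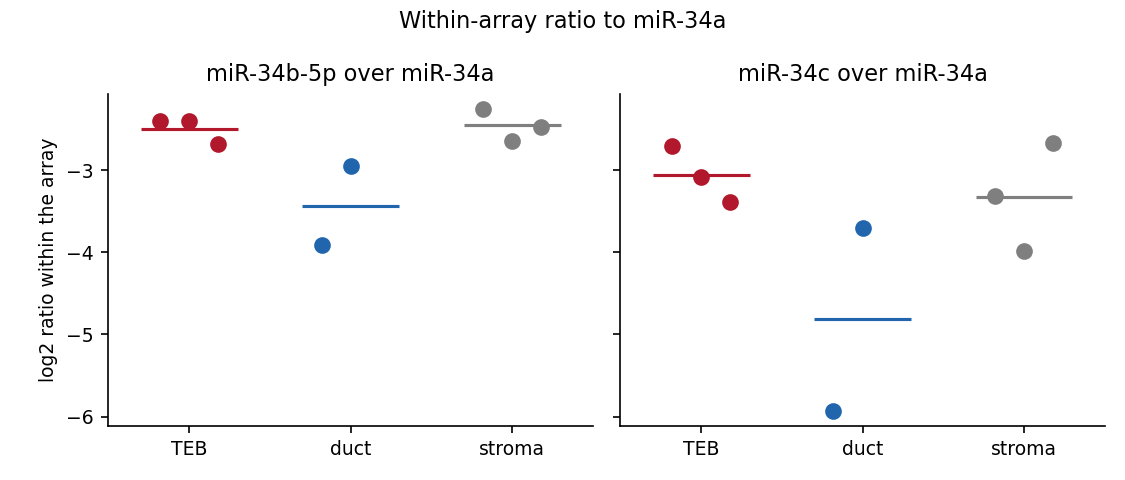
Log2 ratio of miR-34b-5p (left) and miR-34c (right) to miR-34a within each array, with the background as deposited, and with points for arrays and lines for tissue means. For miR-34b-5p the 2 duct arrays are the lowest of the 8, and for miR-34c the second duct array lies inside the stroma range. Neither miR-34b-5p nor miR-34c was detected on the first duct array, nor miR-34c on the second stroma array, and these points are not marked.

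miR-34b-3p, the opposite arm of the miR-34b hairpin, was detected on no array, but its undetected signal was not the same in all tissues. Its scaled signals were -0.486, 3.44 and 4.76 units in TEBs, 24.0 and 10.3 units in ducts, and 13.0, 28.7 and 22.6 units in stroma. All TEB arrays lay below all duct and all stroma arrays, whereas ducts and stroma overlapped.

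On the duct and stroma arrays its signal was 2.00 to 3.42 times its reported error and ranked between 4 and 15 from the top among the 442 to 469 undetected miRNAs of an array. On the TEB arrays the signal was below its error and ranked between 43 and 110. The exact two-sided permutation p was 0.1 for TEB against duct and 0.1 for TEB against stroma, the smallest possible. Among the 408 never-detected miRNAs, TEB arrays lay below all ducts for 10.8% and below all stroma for 8.33%. After subtraction of the array's median never-detected signal the TEB values were 3.86, 8.85 and 12.8 units, still below the ducts at 39.6 and 18.8 and the stroma at 26.0, 45.2 and 31.7. Both shares are from before this subtraction and were not computed after it, so how common the order then was is not known. No fold is given, since the scanner software flagged the miRNA as detected on no array. On the duct and stroma arrays its signal nevertheless exceeded that of the dimmest miRNA flagged as detected. So it did on the second TEB array, at 3.64 against 0.26 units before scaling, and this order therefore does not separate the tissues.

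miR-449a and miR-449b gave signals below 0 on all 8 arrays, as did miR-449c and miR-34c*. The scaled signal of miR-449a was between -9.82 and -3.80 units in TEBs, -20.2 and -7.45 units in ducts, and between -15.2 and -11.1 units in stroma. That of miR-449b was between -9.82 and -5.98 units in TEBs, -19.0 and -10.5 units in ducts, and between -21.6 and -10.2 units in stroma. TEB arrays were the least negative against stroma for both, an order that 54.9% of the never-detected miRNAs shared. After subtraction of the never-detected median the tissue means of miR-449a were -0.452, -1.63 and -0.212 units in TEBs, ducts and stroma, so that no tissue stood out. An absent signal on this array does not show that the miRNA is absent from the tissue.

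The 5 tested miRNAs whose log2 signal followed miR-34a most closely over the 8 arrays were miR-99a (Pearson's r 0.967, Spearman's rho 0.762), miR-21 (0.907 and 0.929), miR-199a-5p (0.878 and 0.762), miR-199a-3p (0.846 and 0.786) and miR-27b (0.828 and 0.786). The points share the 3 tissues and the scaling of each array, so these are descriptions. miR-34b-5p and miR-34c came 56th and 66th of 166, with r of 0.25 and 0.0759. Looked up after the values were seen, miR-34b-5p had miR-34c as its closest miRNA by Pearson's r (r 0.914, rho 0.714), but by rho it was closer to miR-423-5p (r 0.891, rho 0.81), and miR-423-5p was also the closest to miR-34c (r 0.991, rho 0.952). None of these 3 miRNAs was detected on all 8 arrays. On the first duct array miR-34b-5p and miR-34c were both undetected and at their lowest. How far these r values rest on that array was not tested.

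Other miRNAs linked to p53, as its targets, as miRNAs whose processing it aids or as repressors of its message, were read from a list of 13, of which 9 were tested. For TEB against duct 1 of the 9 was called (24.6% of all tested miRNAs were), miR-143, which was lower in TEBs by a log2 difference of -0.61 (limma adjusted p = 0.0274). For TEB against stroma 2 were higher and 5 lower, where 64.7% of all tested miRNAs were called, and for duct against stroma 2 were higher and 2 lower, where 21.6% were. The 2 higher ones were miR-200c and miR-141 in both comparisons; both belong to the epithelial miR-200 family and neither was detected in stroma.

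Among those lower in epithelium, miR-107 had mean scaled signals of 357 ± 10.6 units in TEBs (SD, n = 3), 345 ± 12.9 in ducts (SD, n = 2) and 718 ± 27.8 in stroma (SD, n = 3). Its log2 difference was -1.01 for TEB against stroma and -1.06 for duct against stroma (limma adjusted p = 8.41e-05 and 0.000198). For miR-22 the same differences were -0.77 and -0.97 (limma adjusted p = 0.000288 and 0.000236). The list's median log2 difference was 0.0469, -0.325 and -0.193 for TEB against duct, TEB against stroma and duct against stroma, beside -0.104, -0.277 and -0.0892 over all tested miRNAs. miR-34a had a difference of the opposite sign to miR-107 and miR-22 in both comparisons with stroma, but passed the test in neither. Its sign was that of miR-200c and miR-141.

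In whole tissue pieces, fewer cells that make a miRNA and less of it per cell cannot be told apart. Summed scaled signals of the fibroblast and smooth muscle markers were 3160 to 3779 units in TEBs, 3427 and 3512 in ducts and 2467 to 2964 in stroma. Most of that sum was miR-199a-3p, with means of 2777, 2757 and 2143 units. For TEB against stroma 3 of the 4 tested markers were called higher, whereas miR-143 was called lower (limma adjusted p = 0.0353). Summed signals of the endothelial markers were 1315 to 1650 units in TEBs, 1927 to 2061 in ducts and 2765 to 3863 in stroma. They are miR-126-3p alone, since miR-126-5p was negative on every array. Summed signals of the red cell markers, mostly miR-451, were 1370 to 1902 units in TEBs, 2591 to 3276 in ducts and 1988 to 3577 in stroma, apart between TEBs and ducts. Those of the leukocyte markers were 296 to 450 units in TEBs, 361 to 384 in ducts and 563 to 679 in stroma, apart between epithelium and stroma. Most of that sum was miR-223, with means of 348, 329 and 530 units. TEBs and stroma overlapped for miR-142-3p, and 3 of the 5 leukocyte markers were detected in no tissue. Skeletal muscle markers summed to 17.1 to 89.45 units in TEBs, 56.1 to 179 in ducts and 31.2 to 60.2 in stroma, and all 3 tissues overlapped. The part of these cell types in the miR-34 values was not tested.

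**Figure D4:**
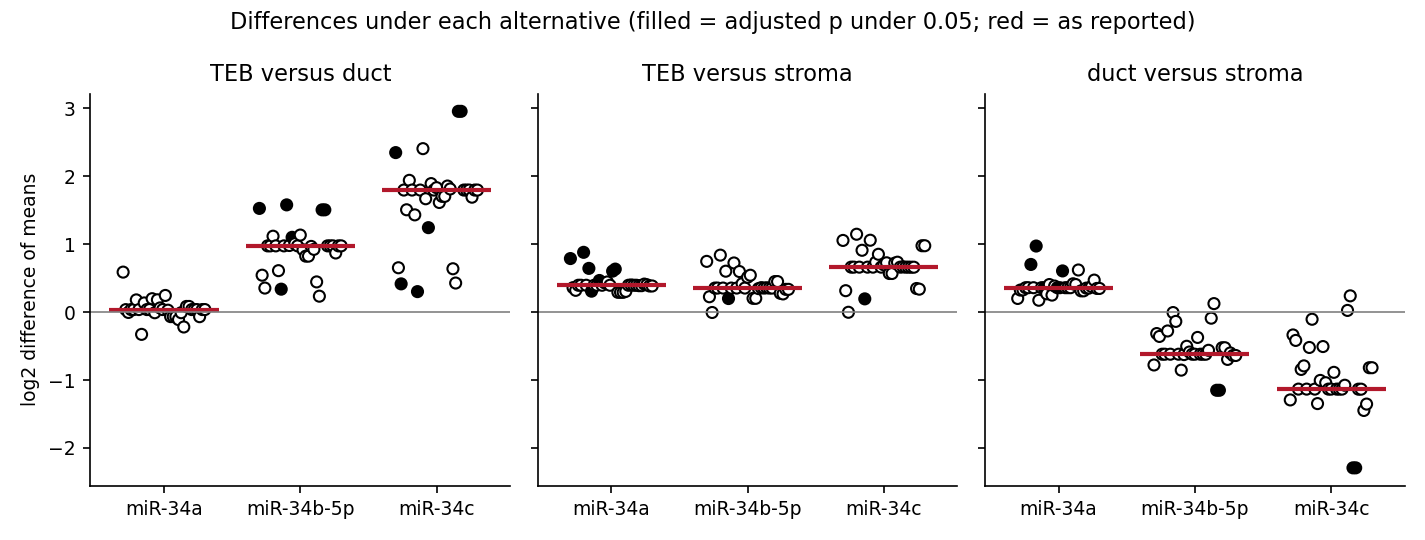
Log2 differences of the 3 tested members under every alternative processing (circles, filled where the adjusted p was under 0.05), with the reported value as a red line, for the 3 comparisons. miR-34b-5p and miR-34c stay above 0 for TEB against duct under all 31 alternatives and are filled in 6 each; miR-34a lies on both sides of 0 in that comparison.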

How the data were processed

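The authors deposited, for each of 8 arrays, the total gene signal intensity that the scanner software computed for each miRNA (background-subtracted and summed over probes), its error and a detection flag; the submitters' processing notes name Agilent Feature Extraction 9.5.3. They also deposited a matrix of log2 values, whose normalization is not given in the sources used here and which served as an alternative. Groups were taken from the labels. After 39 viral probes and the controls were left out, arrays were brought to a common 75th percentile of the 108 mouse miRNAs found on all 8 arrays, signals under 1 were set to 1 and log2 was taken. The 167 miRNAs that all arrays of some tissue detected were fitted with limma 3.58.1 in R 4.3.3, all 3 tissues in 1 fit, with Benjamini-Hochberg adjustment within a comparison at 0.05. Single values were compared by exact two-sided permutation tests. The fit was tested on simulated data. The files hold no counts, so precision comes from the number of arrays and the reported errors.

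The text names the members, relatives on the same hairpins or of the same name, the 5 tested miRNAs most correlated with a member detected on all arrays, and a list of p53-linked miRNAs. Members and lists were chosen with earlier results of these data known. Alternatives were other scalings (all mouse miRNAs, quantile, none), adding 16 or a floor of 4, normexp (offset 50), the detection filter, a replicate block, a slide row term, eBayes with trend and robust estimation, fits on the 2 tissues compared, the methods' t-test, the deposited matrix and leaving out each array. Chosen after the data were seen were the subtraction of the never-detected median (for signals and ratios), scaling on the median, and the split of leaving out an array into a form that kept the scaling and tested miRNAs of all 8 arrays and the form run first, which chose both again from the other 7.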

Additional observations from a re-analysis of the deposited data

How the results depend on the processing

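The calls of family members (0 in each comparison) depended on the processing. For TEB against duct, members called were 2 with the 75th percentile of all mouse miRNAs, 1 with quantile normalization, 2 with normexp, 2 with the deposited matrix and 1 after the never-detected median was subtracted, and 0 to 2 when an array was left out, in either form (2 without the second duct array, miR-34b-5p 1.503 and miR-34c 2.95; 0 without the first, 0.44 and 0.64). For TEB against stroma they were 3 with normexp and 1 with all mouse miRNAs, quantile, no scaling, the deposited matrix, scaling on the median (all miR-34a) and no detection filter (miR-34b-3p, in a fit where limma warned of zero variances), and 0 to 1 when an array was left out (1 without the first TEB array). For duct against stroma 1 was called (miR-34a) with no scaling, the 2-tissue fit, the methods' t-test and scaling on the median, and 0 to 2 when an array was left out (1 without the first TEB array, where the form that chose the scaling again gave miR-34a 0.60, and 2 without the second duct array). Counts over all miRNAs moved from 41 to 75 (no scaling), 18 (no filter), 12 (methods' t-test), 70 (never-detected median subtracted) and, with an array left out, 5 to 45 (5 without the second TEB array, 7 without the first duct array, 25 without the second) or, with the scaling chosen again, 5 to 70 (70 without the first TEB array, 10 without the first duct array) for TEB against duct; from 108 to 66 (all mouse miRNAs) and 81 to 114 (an array left out) for TEB against stroma; and from 36 to 19 (all mouse miRNAs), 56 (no scaling) and 22 to 40 (an array left out) for duct against stroma. Higher and lower calls split 19 and 22, 34 and 74, and 16 and 20 in the 3 comparisons, against 24 and 6, 38 and 28, and 11 and 8 with all mouse miRNAs, and 12 and 63, 41 and 41, and 52 and 4 with no scaling. The mean r of deviations from the tissue means was -0.104 over 7 same-numbered pairs of arrays and 0.0518 over 14 others. Deviations from a mean of 2 or 3 arrays are tied to each other, so these values cannot show whether replicate numbers pair the samples. The replicate block gave 16 calls for TEB against duct in place of 41 and changed no member's call. Signs changed for miR-34a in TEB against duct (-0.33 with no scaling, -0.011 with the replicate block, -0.0063 with the never-detected median subtracted, -0.0681 to 0.24 when an array was left out and, with the scaling chosen again, -0.22 to 0.08, with -0.0677 and -0.11 without TEB arrays 2 and 3 and -0.0687 without the second stroma array), for miR-34b-5p (-0.0070) and miR-34c (-0.0037) in TEB against stroma with that subtraction, and for miR-34c (-2.29 to 0.024 when an array was left out) in duct against stroma, and with the scaling chosen again for miR-34b-5p (-1.15 to 0.12) and miR-34c (-2.29 to 0.24), above 0 without the first duct array. The causes were not tested. Signal over background limits the dim members: miR-34c was at most 4.76 times its error.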
